A study of Mus musculus with 22 samples.

Results

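Recombinant periostin (rPOSTN) was added to wild-type (WT) mouse sensory neuron cultures, and gene expression was compared with control cultures by RNA sequencing. The comparison takes 6 of the 22 libraries of the series: 3 WT cultures with rPOSTN and 3 WT control cultures, all taken from dorsal root ganglia and kept for 72 h. Of 55487 genes listed, 16639 had enough counts to be tested, and every one of them entered the comparison. The other libraries are 6 cultures labelled Postn knock out (KO), with or without rPOSTN for 72 h, and 10 whole ganglia of both genotypes from mice given vehicle or imiquimod (IMQ) for 5 days. The dose, source and species of the rPOSTN, what the control cultures received, and the strain, age and number of the mice were not stated in the labels. Nothing states that the 3 cultures of a group came from separate animals, so each p-value measures only the spread between these libraries. The comparison addresses whether periostin acts directly on cultured sensory ganglion cells.

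Periostin is a secreted matricellular protein, meaning that it sits in the extracellular matrix and signals to cells more than it builds the matrix. It binds integrins, heterodimeric adhesion receptors of an alpha and a beta chain, of which αvβ3 and αvβ5 are its best known receptors and αMβ2 a receptor on myeloid cells. Engaged integrins act through focal adhesion kinase and can feed into ERK, AKT and YAP signalling. In skin disease periostin has been linked to fibrosis, type 2 inflammation and itch, for which integrin-bearing sensory neurons are a known target.

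The cultures contained neurons and many other cells. All 18 neuronal markers, such as the neurofilament and sodium channel genes, had a mean above 1 CPM (counts scaled to the library's total, the unit used below), and their summed level was 8570 to 9050 CPM with rPOSTN against 8550 to 8770 CPM in controls. The 3 whole WT ganglia of the vehicle group, counted in another table, had 19700 to 21900 CPM. All 10 myelinating Schwann cell markers (2760 to 3330 CPM with rPOSTN, 2730 to 3440 CPM in controls), all 9 satellite glia markers (1820 to 2060 and 1830 to 2070 CPM) and all 10 fibroblast markers (782 to 1040 and 807 to 958 CPM) were also above 1 CPM. Macrophage markers summed to 83 to 91 CPM with rPOSTN and 81.6 to 96 CPM in controls, with 10 of 12 above 1 CPM, and all 8 endothelial markers were present (282 to 345 and 302 to 344 CPM). For each of these cell types the ranges of the treatment groups overlapped. In such bulk libraries fewer cells of a type and less RNA per cell cannot be told apart.

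Library number 3 of each group stood apart. WT rPOSTN culture 3 and WT control culture 3 had 1250 and 1180 CPM of Xist, the RNA that coats the inactive X chromosome, and no count of Y-linked Ddx3y. Numbers 1 and 2 of both groups had at most 0.826 CPM of Xist and 77.7 to 85.1 CPM of Ddx3y. The counts of numbers 1 and 2 differed by a chi-square of 2.81 with rPOSTN and 2.49 in controls per degree of freedom (1 would be counting error alone), and against number 3 it was 14.6 to 15.3 and 7.56 to 8.01. Same-numbered libraries correlated in their deviations from the group mean (r = 0.377, 0.368 and 0.678), but numbers 1 and 2 correlated as much across each other (0.364 and 0.37), so the libraries show number 3 apart from the others and no finer pairing. The main results are given both without and with the number as a block (a term that compares rPOSTN with control within a number). That block also pairs numbers 1 and 2, which these correlations do not show. A block that only sets number 3 against numbers 1 and 2 is therefore given as well. Total counts were 18330283, 24118303 and 20658749 with rPOSTN and 18441587, 18265889 and 23261450 in controls.

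Postn was measured first. It stood at 988, 975 and 678 CPM with rPOSTN and at 949, 895 and 691 CPM in controls, so both groups held abundant Postn RNA, overlapped, and were lowest in number 3. The log2 fold change (rPOSTN over control throughout) was 0.06 ± 0.22 (SE), with a 95% interval of −0.54 to 0.66 and an edgeR adjusted p of 0.999. With the block the adjusted p was 0.777. KO cultures had 83.5, 71.8 and 456 CPM of Postn with rPOSTN and 111, 108 and 409 CPM in controls, so the third KO library of both groups carried more Postn RNA than the others. Postn reads in KO cultures do not show that a functional protein was made.

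Across all genes, rPOSTN left expression close to that of controls. The edgeR quasi-likelihood test called 0 of 16639 genes (0%) at a Benjamini-Hochberg adjusted p below 0.05, with 661 genes (3.97%) at an unadjusted p below 0.05. DESeq2 called 0 genes as well, with 333 at an unadjusted p below 0.05. Among the 10317 genes with a mean of at least 10 CPM, the median size of the log2 fold change was 0.0452, and for 95% of them it was at most 0.154. The 95% interval lay within a 1.5-fold change for 10251 of these genes (99.4%) and within a 1.2-fold change for 8107 (78.6%). Changes smaller than that, and changes in genes of low count, were not resolved by 3 libraries a group. Only 8 of the 10317 genes differed by more than 1.5-fold, and none of the 8 passed the test (edgeR adjusted p = 0.999 for each).

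**Figure D1:**
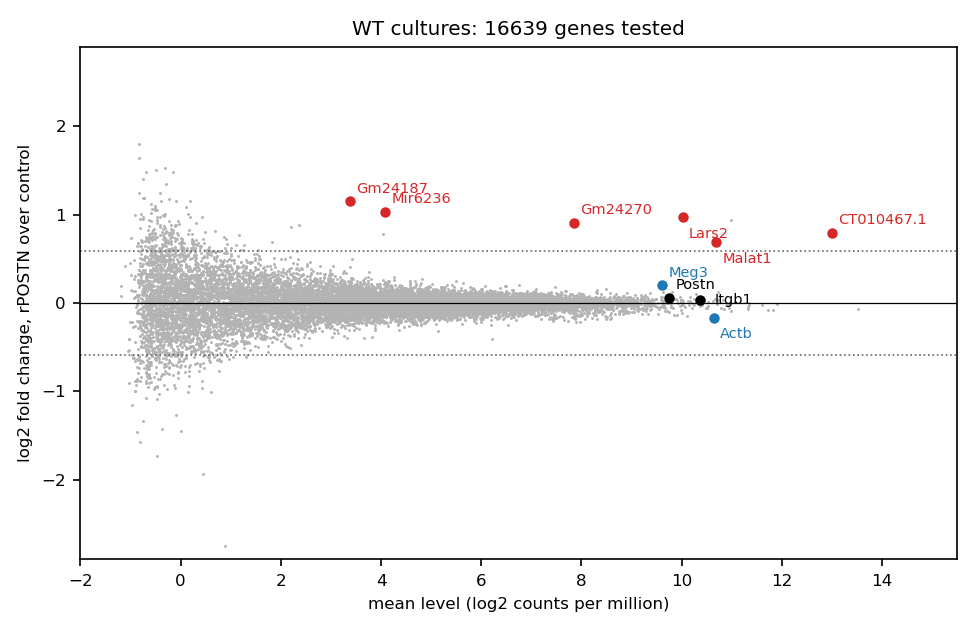
Fold change of each gene in the WT cultures (vertical, log2, rPOSTN over control) against its mean level (horizontal, log2 CPM). Grey points are the 16639 genes tested, dotted lines mark a 1.5-fold change, and the coloured points are genes named in the text. Well-measured genes lie close to 0, and the few above the upper line at high level include CT010467.1 (0.80) and Lars2 (0.97), neither of which passed the test.

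With the replicate number as a block, 8 genes (0.0481%) were called, 7 higher (0.0421%) and 1 lower (0.00601%). In all, 1188 genes (7.14%) had an unadjusted p below 0.05. Of the 7, Meg3 and Miat are long non-coding RNA genes expressed in neurons, and the other 5 are short or little annotated loci: Mir6236, Gm24270, Gm15564, 9930022D16Rik and the gene ENSMUSG00000118642, which has no symbol in the annotation used. The 1 lower gene was Actb, which encodes cytoplasmic beta-actin. The smaller spread that the block leaves (a biological coefficient of variation of 4.15%, against 7.11% without it) goes with these calls. A 2-level block that only sets number 3 against numbers 1 and 2 was added after seeing the data. It called 16 of 16639 genes, 9 higher and 7 lower, among them Meg3, Miat, Actb, Mir6236, Gm15564 and 9930022D16Rik.

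The annotated sequences of the small loci bear on how their counts can be read. Gm24270 and Gm23935 are listed in GENCODE M21 as separate genes on chromosomes 9 and 16, and Gm24187 on chromosome 13, but their transcripts of 57 bases are the same or almost the same. Capitals mark the run of 46 bases that all 3 share.
Gm24270: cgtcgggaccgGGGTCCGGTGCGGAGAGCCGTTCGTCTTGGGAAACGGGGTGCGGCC
Gm23935: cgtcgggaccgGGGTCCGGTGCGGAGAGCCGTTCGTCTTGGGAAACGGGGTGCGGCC
Gm24187: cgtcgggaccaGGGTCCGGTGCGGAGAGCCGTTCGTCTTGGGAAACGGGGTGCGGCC
The mature microRNA of Mir6236 (RefSeq, GRCm38.p6, chromosome 9) is shown with its seed, bases 2 to 8, in capitals.
mmu-miR-6236: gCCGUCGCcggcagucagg
The shared run by itself cannot assign a read to 1 of the 3 genes. Reads of 150 bp reach past the 57 bases, and the sequence beside the loci was not examined. The values of each are therefore uncertain. Library fragments were 200 to 600 bases long, so a count on these 3 genes or on Mir6236 comes from a longer RNA. A count on Mir6236 is thus no measure of the mature microRNA.

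Gm24270 had 181, 253 and 468 CPM with rPOSTN and 80.9, 143 and 253 CPM in controls. The groups overlapped, with number 3 highest in each, but rPOSTN was higher than control within every number. Its log2 fold change was 0.91 ± 0.61 without the block (edgeR adjusted p = 0.999) and 0.94 ± 0.06 with it (adjusted p = 0.00196). That call was lost with a block that only sets number 3 against numbers 1 and 2 (adjusted p = 0.653) and with a length offset beside the block (0.803). Mir6236 had 15.9, 14.2 and 38.1 CPM with rPOSTN and 6.42, 8.34 and 17.7 CPM in controls, again with number 3 highest in each group and the ranges overlapping. It rose by 1.06 ± 0.10 with the block (edgeR adjusted p = 7.27e-07) and stood at 1.04 ± 0.64 without it (0.999). ENSMUSG00000118642 (0.80 ± 0.09, adjusted p = 2.33e-05), Gm15564 (0.92 ± 0.17, 0.0242) and 9930022D16Rik (0.89 ± 0.17, 0.0302) rose likewise in the blocked edgeR fit. The block of number 3 against the others ended the call of ENSMUSG00000118642 (0.192). The blocked DESeq2 fit ended those of Gm15564 and 9930022D16Rik (0.81 each), as did leaving out number 1 for Gm15564 (0.372) and number 2 for 9930022D16Rik (0.191).

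Counts of ribosomal RNA were set beside these loci. CT010467.1, annotated as ribosomal RNA, took 0.621, 0.823 and 1.66% of all counts with rPOSTN and 0.441, 0.537 and 0.821% in controls. It was thus higher with rPOSTN within each number, at 0.71 ± 0.16 log2 in the blocked edgeR fit, which did not pass (adjusted p = 0.679). The blocked DESeq2 fit did call it (0.72, adjusted p = 0.0327), as did the blocked edgeR fit without number 3 (0.55, adjusted p = 3.08e-85). The latter p rests on the spread between numbers 1 and 2 alone. CT010467.1 was not called in the blocked edgeR fits without number 1 (adjusted p = 0.996) or number 2. Nor did it pass there with DESeq2 size factors (0.683), the block of number 3 against the others (0.62) or the length offset (0.803). Lars2, a mitochondrial leucyl-tRNA synthetase gene, had 750, 942 and 2450 CPM with rPOSTN and 508, 565 and 1030 CPM in controls (0.85 ± 0.20 with the block, edgeR adjusted p = 0.687). In KO cultures CT010467.1 took 0.368, 0.189 and 0.199% of counts with rPOSTN and 0.311, 0.212 and 0.234% in controls. There it was higher with rPOSTN in number 1 and lower in numbers 2 and 3. The libraries were made from poly-A selected RNA, and the part that ribosomal RNA carry-over played in the calls of the small loci was not tested. Malat1, a nuclear long non-coding RNA, had 1130, 1310 and 3670 CPM with rPOSTN and 1120, 1540 and 1130 CPM in controls, so its log2 fold change of 0.69 ± 0.57 rested on 1 library, WT rPOSTN culture 3, and was −0.05 without it.

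Meg3 was at 797, 808 and 901 CPM with rPOSTN and at 677, 716 and 785 CPM in controls. Here the groups did not overlap, and the step was of like size within each number. Meg3 rose by 0.20 ± 0.03 with the block (edgeR adjusted p = 0.00159) and had the same fold change without it (0.20 ± 0.06, adjusted p = 0.999). In the blocked fit without number 1 the adjusted p of Meg3 was 0.655. Rian, a non-coding RNA of the same imprinted gene cluster, had 333, 340 and 334 CPM with rPOSTN and 293, 310 and 307 CPM in controls (0.15 ± 0.03, edgeR adjusted p = 0.0804 with the block). Its groups did not overlap either, but it did not pass. Miat had 172, 175 and 222 CPM with rPOSTN and 155, 155 and 190 CPM in controls, and passed with the block (0.18 ± 0.03, edgeR adjusted p = 0.0351). Miat lost its call in the blocked DESeq2 fit (0.81), in the blocked edgeR fits without number 1 (0.682) and number 2 (0.206) and with the length offset (0.0616).

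Actb was at 1560, 1510 and 1460 CPM with rPOSTN and at 1800, 1690 and 1580 CPM in controls. Every rPOSTN library was below every control, and Actb fell with the block by 0.16 on the log2 scale (SE 0.03, edgeR adjusted p = 0.0242). Without the block its fold change was −0.16 ± 0.05 (adjusted p = 0.999), and the call of Actb was lost in the blocked DESeq2 fit (0.0544) and in the blocked edgeR fits without number 1 (0.996) and number 2 (0.199). Non-overlap by itself was common, since 774 genes (4.65%) were higher and 851 (5.11%) lower with rPOSTN in this way.

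**Figure D2:**
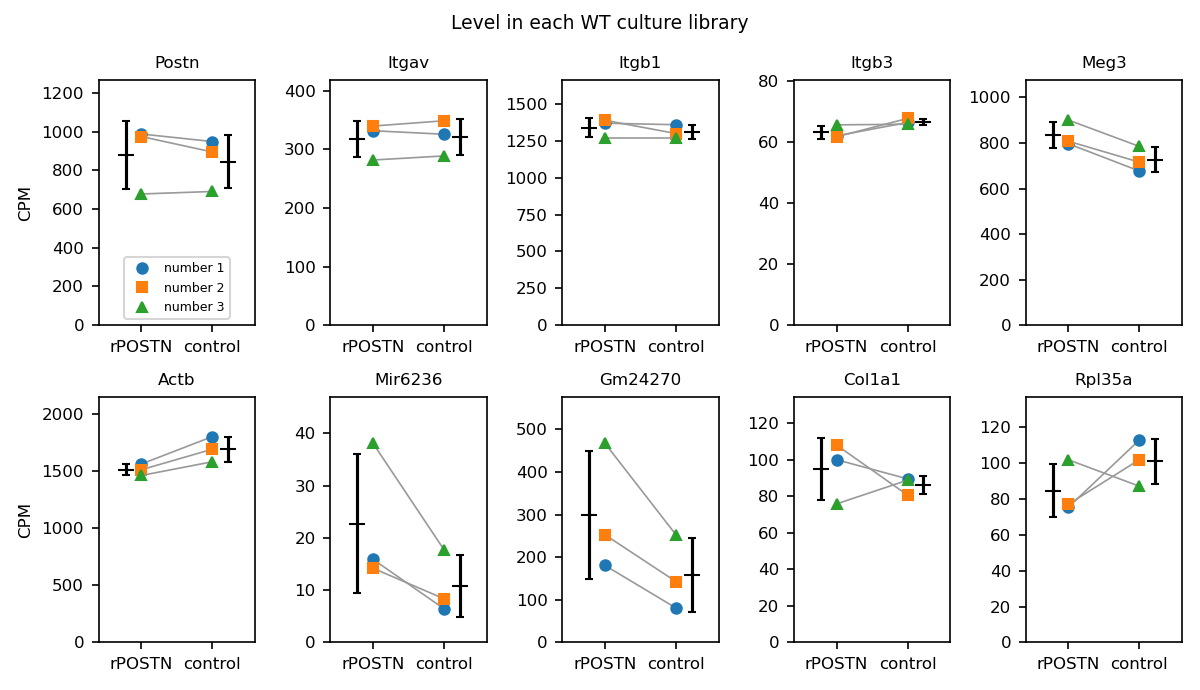
Level in each WT culture library (vertical, CPM, each axis from 0) with rPOSTN (left) and in control (right) for 10 genes. Grey lines join libraries of the same number, symbols mark the number, and black bars give the mean ± SD of each group (n = 3). Meg3 and Actb separate by treatment, Gm24270 and Mir6236 step up within each number, and number 3 goes the other way for Col1a1 and Rpl35a.

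The periostin receptors were expressed in the cultures at levels that differed little between the groups. Set on a scale per length, with rPOSTN and in controls, Itgb1 was at 329 and 321 RPKM (CPM divided by exon length in kilobases), Itgav at 29.6 and 29.9, Itgb5 at 27.4 and 27.3, and Itgb3 at 10.7 and 11.3 RPKM. The αMβ2 chains, typical of myeloid cells, were lowest, with Itgb2 at 2.48 and 2.54 and Itgam at 0.107 and 0.114 RPKM. None of these 6 genes passed the edgeR test (adjusted p = 0.999 each without the block).

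Itgav, the αv chain, had 332, 340 and 282 CPM with rPOSTN and 326, 349 and 289 CPM in controls. These values overlap, and the fold change of −0.01 ± 0.08 has a 95% interval of −0.20 to 0.18. Itgb1, the common β1 chain, had 1370, 1390 and 1270 CPM with rPOSTN and 1360, 1300 and 1270 CPM in controls (0.03 ± 0.04, interval −0.06 to 0.12). Itgb3, the β3 chain, had 61.9, 61.6 and 65.5 CPM with rPOSTN and 66.3, 67.6 and 65.7 CPM in controls. Each rPOSTN library was below each control for Itgb3, though by little in number 3, at −0.08 ± 0.05 (interval −0.19 to 0.03, edgeR adjusted p = 0.778 with the block). Itgb5, the β5 chain, differed by 0.01 ± 0.06 (interval −0.13 to 0.14).

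The pathways downstream of integrins were described by lists written by hand. Over 45 lists with 768 genes tested, 0 genes were called without the block and 0 with it, beside 0% and 0.0481% of all genes, and 24 (3.12%) had an unadjusted p below 0.05 beside 3.97% of all genes. List medians of the log2 fold change ran from −0.07 to 0.16 over the 40 lists with at least 10 genes tested, beside a median of 0 for all genes. Of 21 integrin subunit genes 0 were called (median 0.01), and of 26 focal adhesion genes, which carry the signal inward, also 0 (median 0). ERK feedback genes, which rise when the ERK cascade is active, had a median of 0 over 15 genes, the 15 FoxO and AKT response genes −0.02, the 17 SRF and YAP target genes −0.01 and the 26 immediate early genes 0.02. All cultures were taken at 72 h, so an earlier response that had passed would not show in these medians. Control cultures also held abundant Postn RNA, so they were not cultures without Postn expression. Ccn2, a YAP and TGF-beta target that encodes a matricellular growth factor, had 147, 151 and 152 CPM with rPOSTN and 149, 143 and 157 CPM in controls (0.01 ± 0.04). Nfkbia, the inhibitor that NF-kB induces, was at 36.2, 38.6 and 40.8 CPM with rPOSTN and at 44.8, 45.1 and 40.7 CPM in controls, the groups meeting in number 3 (−0.17 ± 0.07, edgeR adjusted p = 0.999). Ptgs2, the inducible cyclooxygenase gene, had 23, 22.7 and 23.8 CPM with rPOSTN and 20.6, 20.1 and 21.2 CPM in controls. Its groups did not overlap, but its fold change of 0.16 ± 0.08 did not pass (edgeR adjusted p = 0.999).

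**Figure D3:**
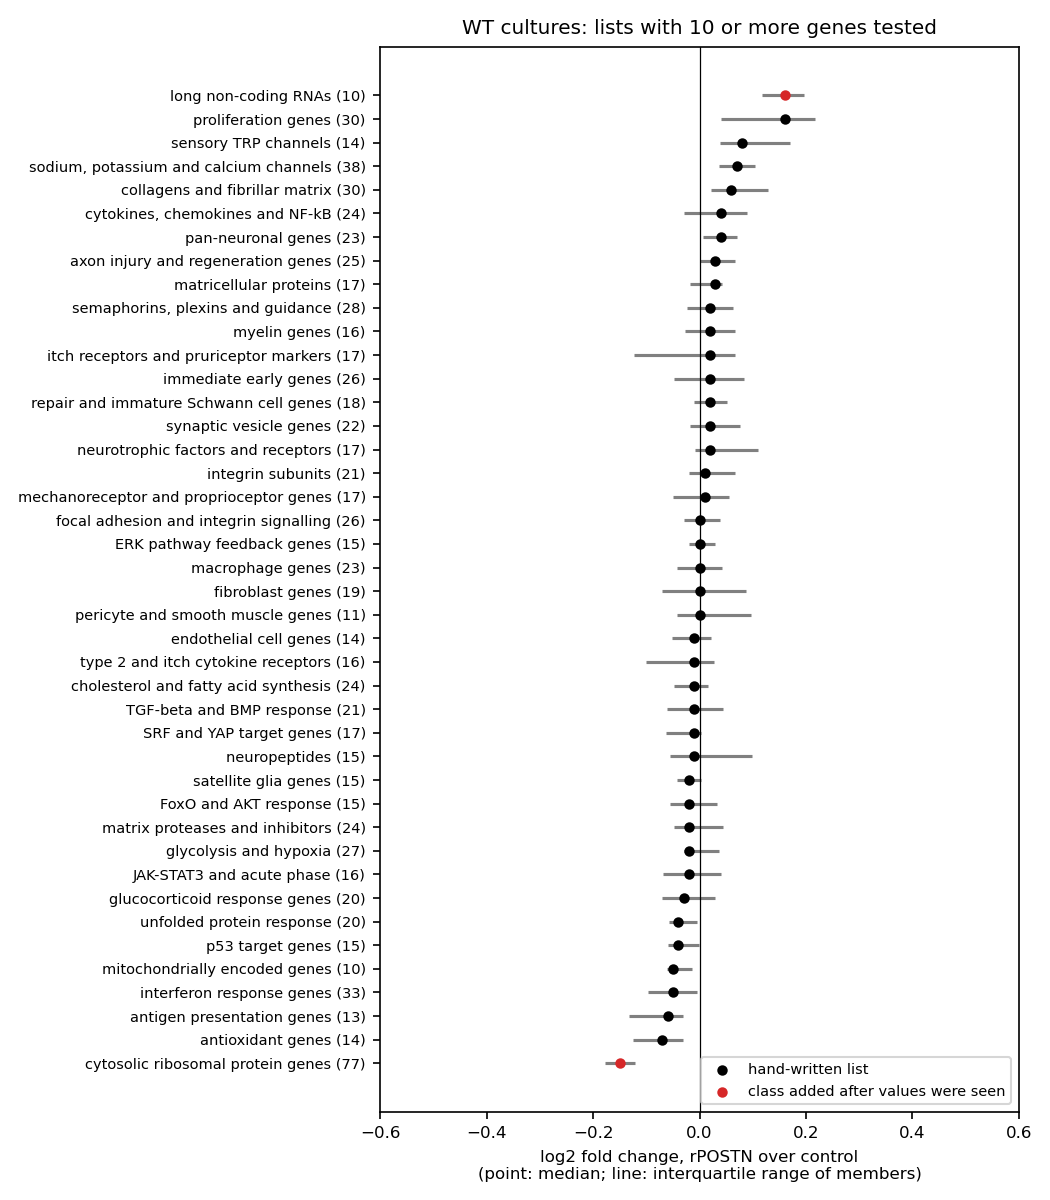
Median log2 fold change, rPOSTN over control, in the WT cultures (point) for each list with at least 10 genes tested, with the interquartile range of its members (line) and the number tested in brackets. Red points are the 2 classes added after values were seen. Most medians lie near 0, with cytosolic ribosomal protein genes at −0.15 and proliferation genes and long non-coding RNAs at 0.16.

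Among genes of sensory neuron function, none passed. The 17 itch receptor and pruriceptor genes had a median of 0.02, the 16 type 2 and itch cytokine receptor genes −0.01, the 15 neuropeptide genes −0.01, the 25 axon injury genes 0.03 and the 23 pan-neuronal genes 0.04. Osmr, the oncostatin M receptor that pairs with the IL-31 receptor, had 89.2, 85.6 and 86 CPM with rPOSTN and 83.4, 85.3 and 86.9 CPM in controls (0.03 ± 0.05). Il31ra itself was low, at 3.44, 1.65 and 2.26 CPM with rPOSTN and 2.4, 2.24 and 2.06 CPM in controls (0.11 ± 0.26). Both overlapped between the groups. Trpv1, the heat and capsaicin channel of nociceptors, was at 28.8, 29.4 and 23.5 CPM with rPOSTN and at 28.4, 29.5 and 21.7 CPM in controls (0.05 ± 0.12), and Trpa1, the irritant channel, at 14.5, 16.9 and 14.2 CPM and at 12.7, 14.9 and 12.8 CPM (0.18 ± 0.11).

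The ion channel list leaned to higher values. Of 38 sodium, potassium and calcium channel genes 32 were above 0 and 6 below, beside 8267 above and 8372 below of all genes. The channel list had a median of 0.07 and pair medians of 0.07, 0.05 and 0.09 for numbers 1, 2 and 3. Of these 38, 0 were called and 5 did not overlap, all higher with rPOSTN, beside 4.65% of all genes higher. The 14 sensory TRP channel genes leaned the same way, with 11 above 0, 3 below, a median of 0.08 and 0 called. Genes with exons of over 8000 bases had a median of 0.028, and those of 1000 to 2000 bases −0.054. The part that gene length played in the channel list was not tested. Scn9a, the Nav1.7 sodium channel of nociceptors, had 137, 141 and 136 CPM with rPOSTN and 133, 123 and 127 CPM in controls, without overlap (0.11 ± 0.04, edgeR adjusted p = 0.999). Scn1a, the Nav1.1 channel, was at 10.5, 10.9 and 11.2 CPM with rPOSTN and at 9.8, 7.09 and 8.94 CPM in controls (0.34 ± 0.12, adjusted p = 0.999). Tac1, which encodes substance P, had 29.9, 29 and 24.8 CPM with rPOSTN and 32.3, 33.1 and 31.1 CPM in controls, lower without overlap (−0.21 ± 0.08, edgeR adjusted p = 0.999). Calca, which encodes CGRP, was at 619, 594 and 591 CPM with rPOSTN and 645, 655 and 593 CPM in controls (−0.07 ± 0.05).

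Genes with the smallest unadjusted p in the comparison without the block were spread over several functions, and none was called. Plxna4, a semaphorin receptor gene of growing axons, had 149, 142 and 139 CPM with rPOSTN and 129, 129 and 126 CPM in controls (0.16 ± 0.04). Atp8a2, a neuronal phospholipid flippase gene, had 92.4, 92.9 and 100 CPM with rPOSTN and 81.4, 78.6 and 89.4 CPM in controls (0.19 ± 0.05). Both groups of libraries were apart for each of these genes, and the edgeR adjusted p was 0.999. Of the genes on the lower side, Cyp1a1, the cytochrome P450 gene induced by the aryl hydrocarbon receptor, had 17.6, 18.1 and 19.3 CPM with rPOSTN and 22.2, 21.9 and 24 CPM in controls (−0.31 ± 0.08). Ctsz, a lysosomal cathepsin gene, was at 127, 130 and 130 CPM with rPOSTN and at 145, 142 and 139 CPM in controls (−0.14 ± 0.04), also without overlap.

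Cell division genes had the highest median of the hand-written lists with at least 10 genes tested. Of 30 proliferation genes 26 were above 0 and 4 below, beside 8267 above and 8372 below of all genes. The proliferation list had a median of 0.16 and pair medians of 0.08, 0.22 and 0.08, and 0 were called. Of these 30, 4 did not overlap, all higher with rPOSTN, beside 4.65% of all genes higher. Ccnb2, a mitotic cyclin gene, had 6.66, 7.43 and 6.28 CPM with rPOSTN and 5.44, 4.31 and 4.99 CPM in controls (0.47 ± 0.14). Kif20b, a kinesin gene of cytokinesis that lies outside the list, had 9.83, 9.5 and 8.78 CPM with rPOSTN and 6.91, 7.14 and 6.88 CPM in controls (0.42 ± 0.12), and the spindle gene Spdl1 6.66, 5.95 and 5 CPM with rPOSTN and 3.43, 4.14 and 4.04 CPM in controls (0.59 ± 0.16). In these 3 genes of low level every rPOSTN library was above every control, with an edgeR adjusted p of 0.999 each and of 0.31 to 0.447 with the block. They were named for their small unadjusted p, so that separation follows in part from how they were picked. The lowest median of the same hand-written lists, −0.07, was that of 14 antioxidant genes, 1 above 0 and 13 below. Its pair medians were −0.03, −0.08 and −0.06, and 0 of its genes were called. Lower without overlap was 1 of the 14, beside 5.11% of all genes.

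The ratio of rPOSTN to control was not alike in the 3 numbers, which is given as a description, since number 3 has 1 library a group. Numbers 1 and 2 also differ from number 3 in sex-linked genes, so sex, litter, day and culture cannot be told apart here. Of 77 cytosolic ribosomal protein genes, which build the ribosome, 76 were lower with rPOSTN in number 1, 77 in number 2 and 18 in number 3. Their median log2 ratio of rPOSTN to control was −0.29 and −0.24 in numbers 1 and 2, and 0.06 in number 3, beside 0 for all genes in each.

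Rpl35a, a protein of the large ribosomal subunit, had 75.4, 77.1 and 102 CPM with rPOSTN and 113, 102 and 87.2 CPM in controls. It was thus lower with rPOSTN in numbers 1 and 2 and higher in number 3. Rpl38, also of the large subunit, had 44.1, 45.3 and 66.1 CPM with rPOSTN and 67.2, 56.1 and 50.7 CPM in controls, in the same order. Rpl8, by contrast, was lower with rPOSTN in each number, with 345, 344 and 351 CPM with rPOSTN against 393, 392 and 376 CPM in controls. It did not pass over the 3 numbers (−0.16 ± 0.03, edgeR adjusted p = 0.0547 with the block). Over all 3 numbers the class had a median of −0.15 beside 0 for all genes, with 0 of 77 called. Of these 77, 14 were lower without overlap, beside 851 of all 16639 genes (5.11%).

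Of 30 collagen and fibrillar matrix genes, 23 were higher with rPOSTN in number 1, 24 in number 2 and 11 in number 3, with median log2 ratios of 0.05, 0.14 and −0.04. Of 17 matricellular genes the counts were 10, 14 and 6, with medians of 0.02, 0.11 and −0.09. Col1a1, the main chain of type I collagen, had 100, 108 and 75.8 CPM with rPOSTN and 89.5, 80.6 and 88.8 CPM in controls. Col3a1, of type III collagen, had 188, 197 and 142 CPM with rPOSTN and 178, 158 and 150 CPM in controls. Thbs1, a thrombospondin gene, had 408, 424 and 322 CPM with rPOSTN and 380, 388 and 360 CPM in controls. These 3 genes were higher with rPOSTN in numbers 1 and 2 and lower in number 3, and none passed over the 3 numbers (edgeR adjusted p = 0.999 each, and 0.837 to 0.954 with the block). The 10 fibroblast markers summed to 994, 1040 and 782 CPM with rPOSTN and to 958, 913 and 807 CPM in controls, and Col1a1 and Col3a1 are among them. The longer fibroblast list of 19 genes had median ratios of 0.01, 0 and −0.05. Pericyte and smooth muscle markers summed to 337, 343 and 301 CPM with rPOSTN and to 323, 314 and 305 CPM in controls, and endothelial markers to 338, 345 and 282 CPM with rPOSTN and to 317, 344 and 302 CPM in controls, so both also were higher in numbers 1 and 2 and lower in number 3. The part of these cell types in the matrix values was not tested.

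With number 3 left out, the blocked edgeR fit over 4 libraries called 529 of 16540 genes (3.2%), 144 higher (0.871%) and 385 lower (2.33%), against 6 and 10 genes without number 1 or number 2. Those p-values rest on the spread between numbers 1 and 2 alone, the libraries closest to each other (chi-square of 2.81 and 2.49, above), so the 529 calls describe these 4 libraries. Among the 529 were 70 ribosomal protein genes, all lower, and 7 collagen and matrix genes, all higher. The median size of the log2 fold change was 0.16 for the higher and 0.23 for the lower genes. Number 3 did not share these directions: 76 of the 144 higher genes (52.8%, beside 49.7% of all genes) and 127 of the 385 lower genes (33.0%, beside 50.3%) moved the same way in it.

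The genes called without number 3 differed in length. The higher ones had a median exon length of 7990 bases and the lower ones of 1930 bases, beside 4150 bases for all genes. In numbers 1 and 2 the ratio of rPOSTN to control rose with gene length, by 0.0387 and 0.0366 log2 per doubling over 10870 genes, and in number 3 by 0.00223. Genes of 500 to 1000 bases had median ratios of −0.20, −0.16 and 0.07 in numbers 1, 2 and 3, and −0.19, −0.13 and 0.07 once ribosomal protein genes were left out. In KO cultures the same slope was −0.117, 0.0436 and 0.0399. The part that this trend played in the calls without number 3 was not tested.

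**Figure D4:**
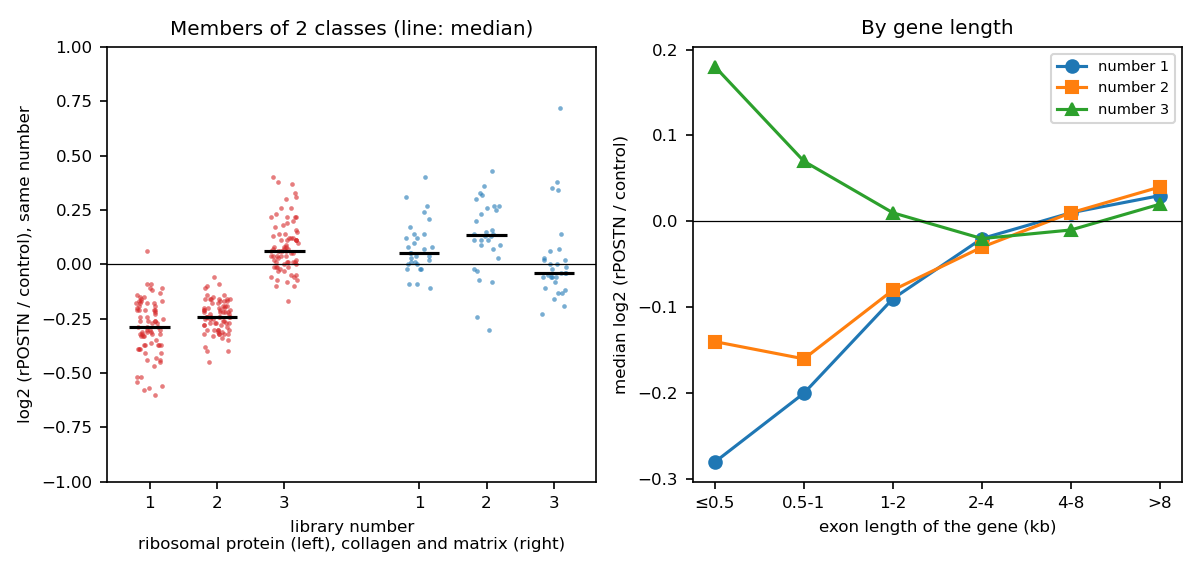
Left, log2 ratio of rPOSTN to control between same-numbered WT libraries for each cytosolic ribosomal protein gene (red) and each collagen or matrix gene (blue), with the median as a line. Right, median log2 ratio by exon length of the gene in kilobases for each number. Ribosomal protein genes lie below 0 in numbers 1 and 2 and around 0.06 in number 3, and short genes show the same split.

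The KO cultures give the response to rPOSTN in cells labelled Postn knock out. There the edgeR test called 0 of 16756 genes (0%), without or with the block, with 155 (0.925%) at an unadjusted p below 0.05 without it. The difference of the rPOSTN effects, WT minus KO, called 0 of 17519 genes (0%) without the block, with 342 (1.95%) at an unadjusted p below 0.05, and DESeq2 also called 0, with 332. With the block it called 2 genes (0.0114%), Gm24270 and Gm23935, which share their sequence. Gm24270 had 107, 61.2 and 76.5 CPM in KO rPOSTN cultures and 92.4, 60.9 and 101 CPM in KO controls, with the groups overlapping.

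Effects of WT and KO were set beside each other for the genes described above. Meg3 was 0.20 ± 0.06 in WT and −0.06 ± 0.15 in KO, Actb −0.16 ± 0.05 in WT and 0.07 ± 0.15 in KO, and Col1a1 0.14 ± 0.14 in WT and 0.01 ± 0.79 in KO. None of these differed by the test of the difference (edgeR adjusted p = 1 each). The intervals in KO were wide, with a median SE of 0.14 log2 against 0.0652 in WT over 10317 genes. Glycolysis and hypoxia genes had a median of −0.02 over 27 genes in WT and 0.38 in KO, with 0 called in either and 0 for the difference. Vegfa, the hypoxia-induced angiogenic factor gene, had 114, 120 and 121 CPM with rPOSTN and 115, 115 and 129 CPM in controls in WT, and 144, 1140 and 149 CPM with rPOSTN and 151, 531 and 160 CPM in controls in KO, where the second library of both groups was highest.

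**Figure D5:**
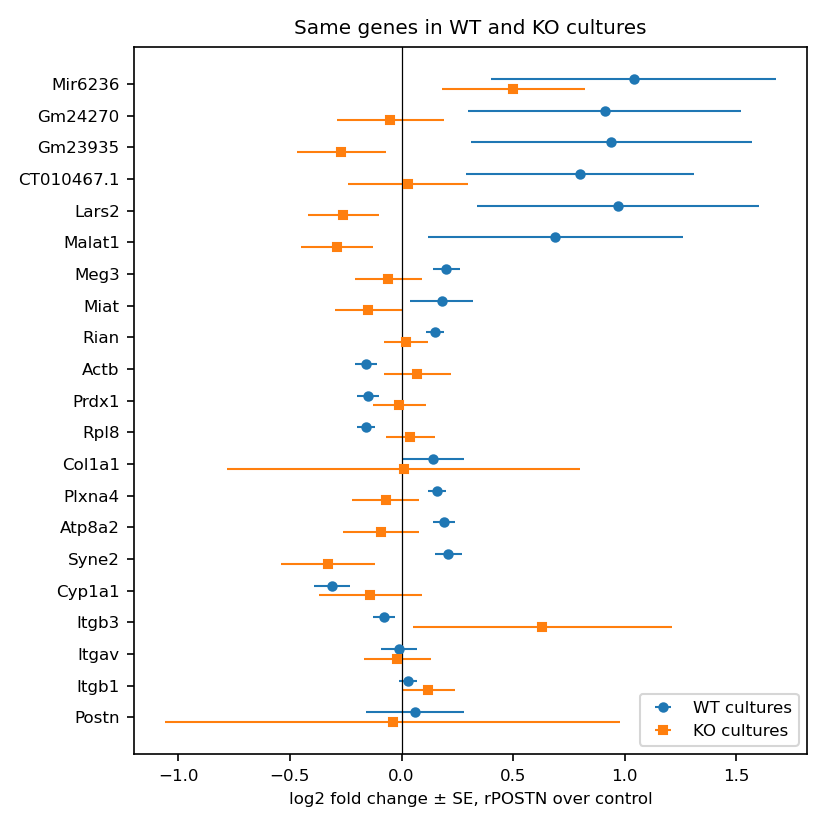
Log2 fold change, rPOSTN over control, with its SE (bar) for named genes in the WT cultures (circle) and the KO cultures (square), without the block. Meg3 is at 0.20 in WT and −0.06 in KO, Actb at −0.16 and 0.07, and for no gene did the difference pass the test.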

How the data were processed

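RNA of cultured dorsal root ganglion cells was poly-A selected, fragmented to 200 to 600 bp, made into strand-specific libraries with dUTP and read in pairs of 150 bp, per the labels' protocols. The authors deposited raw read counts per Ensembl gene, as 3 tables, and WT and KO cultures stand in separate tables. Named in the submitters' processing notes, with no role, were GRCm39, TopHat2, Bowtie2 2.2.3 and HISAT2 2.1.0. Which tool counted reads, with which strand setting and annotation release, is not given in the sources used here. If strand was ignored, reads of overlapping genes cannot be told apart. Of 55487 genes, 55141 were given a symbol and 55227 an exon length from GENCODE M21, which rests on another build, so no gene coordinates are printed. All columns used matched 1 sample each, and 0 columns were left unmapped.

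Counts were tested with edgeR 4.0.16 (filterByExpr, TMM, robust quasi-likelihood, two-sided) in R 4.3.3, Benjamini-Hochberg adjusted over all genes tested, and called below 0.05. WT cultures were fitted alone, and the WT minus KO difference over the 12 culture libraries. Because genotype and table coincide, WT and KO levels were not tested against each other. Alternatives were DESeq2 1.42.0, other scalings and filters, libraries left out and the replicate block. CPM use TMM-scaled totals, each SE is the log2 fold change divided by the root of its F statistic, and ratios within a number add 0.5 CPM. Scripts were tested on simulated data. Python 3.11.15 and matplotlib 3.10.9 were used for tables and figures.

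Numbers were taken to pair the samples if every same-numbered pair correlated above 0.1. Over 10853 genes they did, at 0.377, 0.368 and 0.678, which met that rule. These are correlations across genes, which are not independent replicates, and the pairing has no other source than the data. Numbers 1 and 2 correlated equally across numbers (0.364 and 0.37), and with number 3 at −0.514 to −0.484. Since number 3 shifts each group mean, numbers 1 and 2 correlate in either order. The rule therefore cannot show a pairing within numbers 1 and 2.

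Postn, 6 integrin genes and sex-linked genes were always named. Others were up to 10 genes a direction called in either WT fit, or else those of smallest p with the same direction in all 3 numbers, and up to 4 genes of smallest p per list, at a mean of at least 1 CPM and without placeholder names. Not every gene this rule reaches is reported. The loci with placeholder names, and Rpl35a, Rpl38, Lars2, Malat1, the matrix genes Col1a1, Col3a1 and Thbs1 and familiar members such as Trpv1, Calca, Osmr, Ccn2 and Vegfa, were chosen after values were seen. The members and lists were chosen with earlier results of these data known, and 2 classes, ribosomal protein genes and long non-coding RNAs, were added after seeing values.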

Additional observations from a re-analysis of the deposited data

How the results depend on the processing

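The count of genes called in WT cultures was 0 without a block in edgeR with either scaling, with a filter at 1 CPM, without robust estimation, with a length offset, in 1 fit over the 4 culture groups, in DESeq2, and without any 1 library. It was 2 with no filter on low counts, 8 with the replicate block, 8 with the block and DESeq2 size factors, 8 with the block and a length offset, 6 with the block in DESeq2, and 16 with a 2-level block that sets number 3 against 1 and 2. Leaving out 1 same-numbered pair in the blocked fit gave 6, 10 and 529 genes without numbers 1, 2 and 3. The block also moved the count for WT minus KO to 2, which was 0 under its other alternatives, libraries left out among them. The 2-level block and the length offsets were added after seeing the data. A test of numbers 1 and 2 against number 3 was tried as well and is not reported, since number 3 has 1 library a group. The cause of these shifts was not tested. Since the pairing rests on the data alone, the 8 calls hold as a set only if same-numbered libraries share a source. The 2-level block, which does not pair numbers 1 and 2, also called Meg3, Miat, Actb, Mir6236, Gm15564 and 9930022D16Rik. It did not call Gm24270 or ENSMUSG00000118642, and it too sets number 3 apart from the data alone. With number 3 left out the blocked fit has few residual degrees of freedom of its own.

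Genes with a fold change near 0 changed sign as libraries were left out, with log2 ranges of −0.07 to 0.22 for Postn, −0.08 to 0.07 for Itgav, −0.05 to 0.08 for Itgb5, −0.14 to 0.08 for Itgb2, −0.36 to 0.19 for Itgam, −0.09 to 0.15 for Trpv1, −0.20 to 0.35 for Il31ra, −0.01 to 0.05 for Osmr, −0.03 to 0.04 for Ccn2 and −0.06 to 0.04 for Vegfa. Among the fits behind these ranges, the block gave 0.06 for Itgb2 without number 1 and 0.02 for Vegfa without number 3, and leaving out 1 control library gave −0.02 for Ccn2 (number 2) and 0.11 for Itgam (number 3). Further ranges that cross 0 were −0.03 to 0.30 for Col1a1, −0.04 to 0.15 for Thbs1, −0.46 to 0.05 for Rpl38 and −0.12 to 0.98 for Malat1. Genes of low count limit what 3 libraries a group can resolve.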
